A study of Caenorhabditis elegans with 16 samples.

Results

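Among 12 libraries of germline-less Caenorhabditis elegans, the replicate number in the library title went with more of the variation between libraries than the RNAi treatment did. The libraries are those of the glp-1 worms, 12 of the 16 in the series, and they were taken by their labels: every glp-1 library numbered 1, 2, 3 or 4. All 12 hold whole-body RNA of worms at adult day 1, and all are glp-1 mutants in the TU3401 background. Their groups are mml-1 RNAi (4 libraries), mxl-2 RNAi (4 libraries) and the control RNAi that the labels call Luc (4 libraries). The other 4 libraries of the series are TU3401 worms that have a germline, on Luc RNAi, and they entered only an alternative fit. The libraries of 1 number, 1 from each RNAi group, are called a set, so that there are 4 sets of 3 libraries. The labels do not say what a number marks (a day, a culture or only an order), nor that the worms of different numbers were grown apart. Tests here are against the spread that remains between libraries, part of which may be technical.

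The glp-1 gene encodes the Notch receptor that keeps germline stem cells dividing, and its loss leaves adults without a germline and long-lived. TU3401 is known as a strain in which the double-stranded RNA channel SID-1 is restored in neurons alone, so RNAi given as food, here HT115 bacteria with the L4440 vector, acts mainly there. MML-1 and MXL-2 are the worm's Mondo and Mlx, partner transcription factors. In worms many transcripts follow the surroundings: the food bacteria, oxygen, temperature, pathogens and the exact hour of development. Genes of the intestine, cuticle collagens, detoxifying enzymes, C-type lectins and the F-box family are among those well known to do so. In bulk RNA, fewer cells of a type and less RNA per cell cannot be told apart.

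Levels are given in RPKM as deposited, that is, reads scaled to the length of a gene and to the size of its library. Differences are of log2(RPKM + 1), a scale on which the differences of genes with few reads come out too small. The RNAi targets were checked against the labels. mml-1 had 23.8, 91.5, 28.9 and 22.9 RPKM in replicates 1 to 4 of the group labelled mml-1 RNAi, against 35.2, 23.95, 11.9 and 11.2 RPKM on Luc RNAi. mxl-2 had 29.3, 90.7, 733 and 47.4 RPKM in replicates 1 to 4 of the group labelled mxl-2 RNAi, against 24.5, 30.3, 20.99 and 22.9 RPKM on Luc RNAi. For both genes the range in the gene's own RNAi group overlaps that on Luc RNAi and reaches higher, and the single high values fell in different sets. In the library labelled mml-1 RNAi replicate 3, mxl-2 was at 308 RPKM as well, while in the others of its group it was at 25.4 to 26.98 RPKM. These targets therefore do not check the labels, and libraries are called below by the group they are labelled with. RNAi acts mainly in neurons here, and whole bodies were sequenced.

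A gene was tested if its mean over the 12 libraries was at least 1 RPKM, which 12558 of 42048 listed genes and other loci were. Of these, 39.7% (4990 genes) differed between the 4 sets with the RNAi group as a block (limma F-test, Benjamini-Hochberg adjusted p under 0.05). Set against the RNAi treatment, the sets held the larger share. The number took 55.9% of the sum of squares over these genes, the RNAi group 17.6% and the remainder 26.5%, on 3, 2 and 6 degrees of freedom. In 9624 of the 12558 genes (76.6%) the mean square of the number was larger than that of the RNAi group. Within the RNAi groups, 67.8% of the spread went with the number (exact permutation test of the numbers within groups, 1-sided p = 0.00174, the smallest that 576 arrangements can give).

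Libraries of the same number deviated from their RNAi group's mean in the same direction. Over all tested genes, the deviations of the 12 same-number pairs correlated with r from 0.200 to 0.681 (median 0.503), and each of the 12 libraries had as its closest library of another RNAi group the one with its own number. The 36 pairs of different numbers lay between -0.556 and 0.281 (median -0.152); deviations within a group sum to 0, which pulls these values down. Set 1 was the tightest, with a median r of 0.620 among its 3 pairs, then set 4 with 0.576, set 3 with 0.387 and set 2 with 0.217. In set 2 the libraries of mml-1 RNAi and Luc RNAi correlated with 0.507, while the pairs with mxl-2 RNAi had 0.200 and 0.217. Sets 1 and 4 lay opposite each other, and their mean profiles correlated with -0.718. These correlations run across genes, which are not independent replicates.

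**Figure D1:**
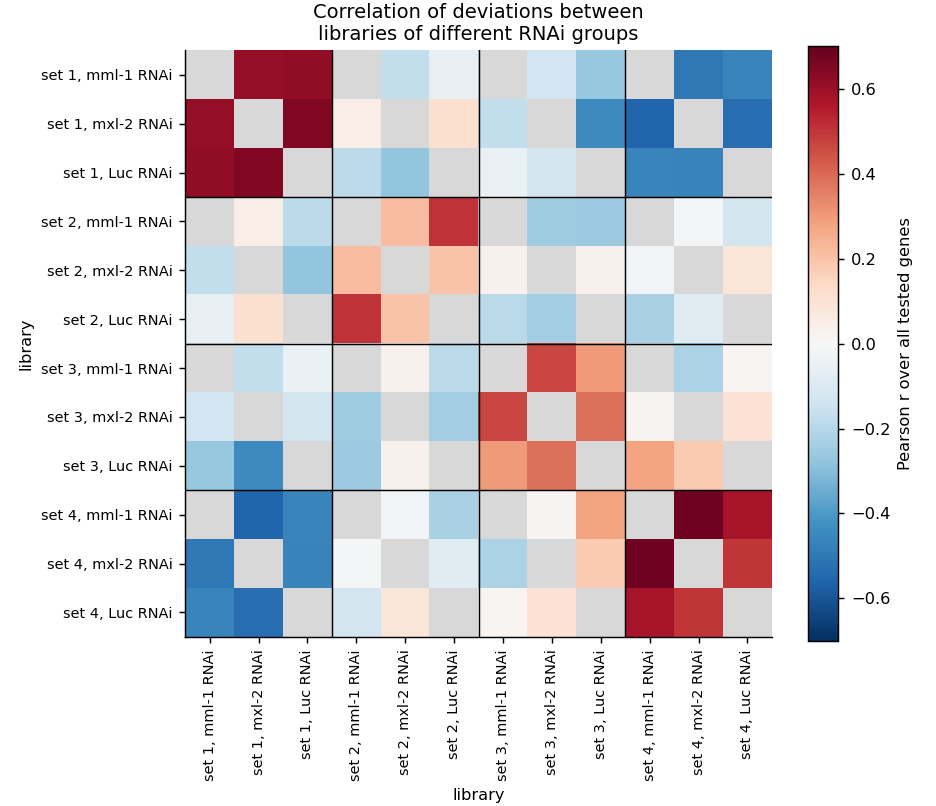
Pearson r between the deviations of 2 libraries from their RNAi group means, over 12558 genes; rows and columns are the 12 libraries ordered by replicate number, with grey where 2 libraries share a group. The blocks of equal number on the diagonal hold the 12 same-number pairs, all positive, from 0.200 to 0.681. Of the 36 pairs of different numbers, 10 were above 0, up to 0.281. The blocks of sets 1 and 4 against each other are blue.

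A principal component analysis of the same deviations gave 3 components that separated the sets. The first held 40.4% of the variance, with set 1 at one end and set 4 at the other, and 96.9% of it lay between numbers. The second held 18.8% and set off set 2 (86.6% between numbers). The third held 12.4%, with sets 3 and 2 on one side and sets 1 and 4 on the other (89.6% between numbers). The fourth, with 7.11%, did not follow the numbers (6.58%).

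**Figure D2:**
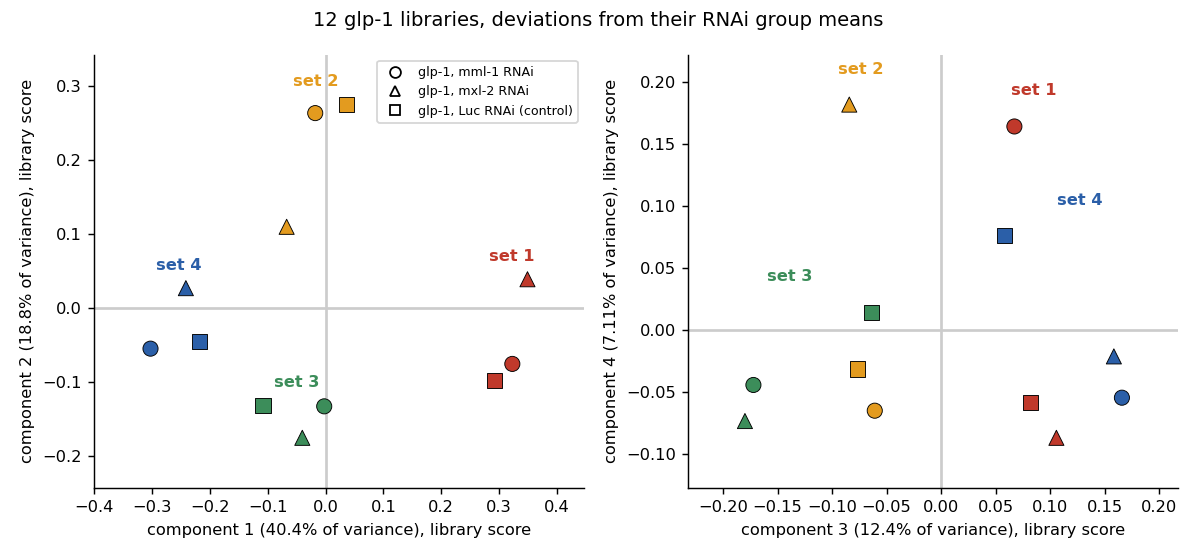
Scores of the 12 libraries on components 1 and 2 (left) and 3 and 4 (right) of the deviations from RNAi group means; colours are sets, and symbols are mml-1 RNAi, mxl-2 RNAi and Luc RNAi. Libraries of a set lie together on components 1 to 3, which hold 40.4%, 18.8% and 12.4% of the variance, and are mixed on component 4.

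Depth did not follow the sets detectably, while the make-up of the libraries did. Recovered totals ran from 19242986 to 27228111 reads (exact permutation test, p = 0.325, adjusted over 9 measures 0.325). The share of reads in ribosomal protein genes averaged 4.44%, 3.71%, 4.13% and 3.66% in sets 1 to 4 (exact permutation, p = 0.00694, adjusted 0.0273). Vitellogenins took 17%, 14.3%, 18.1% and 16.7% of reads (exact permutation, p = 0.00868, adjusted 0.0273), and cuticle genes 4.90%, 5.26%, 5.79% and 6.54% (exact permutation, p = 0.0104, adjusted 0.0273). The median of all genes moved with the sets too: it differed by -0.09, 0.08, -0.07 and 0.07 (log2) in sets 1 to 4 from the other sets. The balance of higher and lower genes depends on this scale, as given below. The part of library make-up in the single-gene results was not tested.

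The genes called by the number were spread over the genome. The called share was 35.9% on chromosome I, 39.7% on II, 36.6% on III, 38.2% on IV, 44.7% on V and 42.7% on X. It followed the level, from 21.8% in the lowest of 4 equal classes of mean RPKM to 57.3% in the highest. Protein-coding genes were called in 40.8% of 11642 and piRNA loci in 12.4% of 267. The differences were mostly small: among called genes the 4 set means spanned a median of 0.60 on the log2 scale, 1051 genes spanned at least 1 and 193 at least 2. By the set that stood farthest from the others, 2369 of the called genes belonged to set 1, 795 to set 2, 759 to set 3 and 1067 to set 4.

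Each set was then compared with the mean of the other 3. Of the tested genes, set 1 was higher in 11% (1382) and lower in 21% (2637). Set 2 was higher in 6.98% (876) and lower in 1.51% (189). Set 3 was higher in 1.45% (182) and lower in 6.86% (861). Set 4 was higher in 12.1% (1523) and lower in 7.17% (900). The split between the directions turned with the scaling. Of the calls, 34.4% were higher in set 1, 82.3% in set 2, 17.4% in set 3 and 62.9% in set 4. With quantile scaling these shares were 46.1%, 54.4%, 55.3% and 53.1%, and with median-ratio scaling 53.6%, 44.1%, 60.4% and 43.9%. The 4 contrasts share libraries, so a gene high in 1 set is thereby lower in the others.

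Single libraries carried some of these counts. The 4019 calls of set 1 fell to 2117 without mxl-2 RNAi replicate 1 and to 2604 without Luc RNAi replicate 1. The 2423 calls of set 4 fell to 433 without mml-1 RNAi replicate 4, to 998 without mxl-2 RNAi replicate 4, to 1594 without Luc RNAi replicate 4 and to 1574 without mml-1 RNAi replicate 3. The 1065 calls of set 2 fell to 130 without Luc RNAi replicate 2 and to 140 without mml-1 RNAi replicate 2. They lay at 454 to 558 without mxl-2 RNAi replicate 3, mml-1 RNAi replicate 3 or 4, or Luc RNAi replicate 1. The 1043 calls of set 3 went to 0 without mml-1 RNAi or mxl-2 RNAi replicate 3, and to 484 without Luc RNAi replicate 3. Of the libraries outside set 3, 7 moved its count by over 1.5 times: it was 265 to 684 without mxl-2 RNAi replicate 1 or 4, mml-1 RNAi replicate 1, 2 or 4, or Luc RNAi replicate 2, and 1620 without mxl-2 RNAi replicate 2. The 4990 genes of the F-test were 3271 and 3272 without mml-1 RNAi replicate 4 and mxl-2 RNAi replicate 3.

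**Figure D3:**
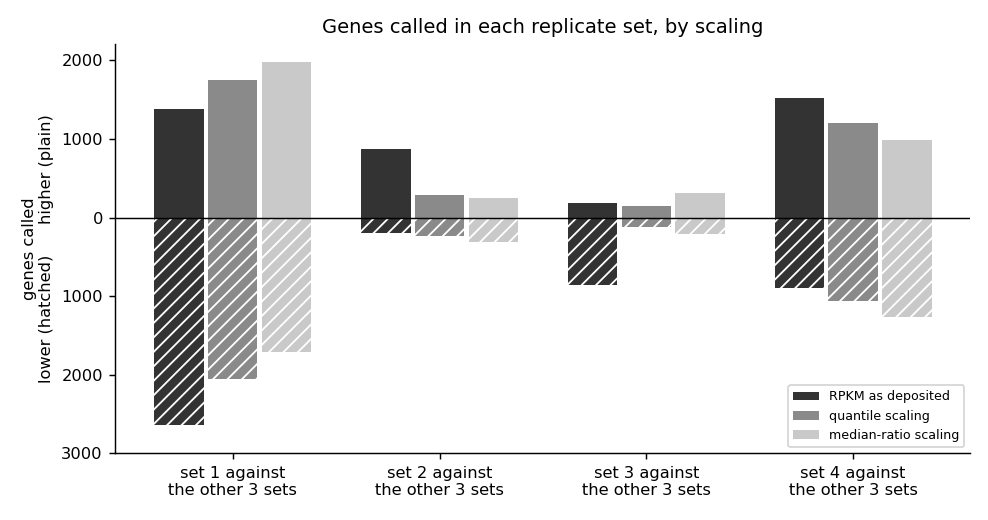
Number of genes called higher (plain bars, upwards) and lower (hatched bars, downwards) in each set against the other 3, with the RPKM as deposited and after quantile or median-ratio scaling. Sets 1 and 4 keep the most calls under all 3, while the surplus of higher genes in set 2 (876 against 189) and of lower genes in set 3 (861 against 182) shrinks or turns.

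The 10 genes with the smallest p in the F-test were all called in set 1, with 3 higher and 7 lower there. R09E10.13 (chromosome IV, 10294811 to 10295144 in the WBcel235 annotation) stood at 100.05, 52.8 and 68.6 RPKM in set 1, against 0, 0.723 and 1.58 RPKM as the lowest, median and highest of the 9 libraries of the other sets (log2 difference 5.35 ± 0.19 (SE), limma adjusted p = 7.83e-06). It was thus near 0 in 9 germline-less libraries and well expressed in the 3 numbered 1, which did not overlap with them. The DnaJ chaperone gene dnj-13 stood at 116, 109 and 131 RPKM in set 1, against 25.19, 30.3 and 43 RPKM as the lowest, median and highest of the 9 libraries of the other sets (log2 difference 1.89 ± 0.08 (SE), limma adjusted p = 8.14e-06). R06C1.4 stood at 1383, 1472 and 1287 RPKM in set 1, against 456, 549 and 649 RPKM as the lowest, median and highest of the 9 libraries of the other sets (log2 difference 1.32 ± 0.06 (SE), limma adjusted p = 8.14e-06). For both, each library of set 1 lay above all 9 others. rpr-1, the gene of the RNase P RNA, which trims transfer RNA precursors, stood at 17.03, 18.4 and 12.99 RPKM in set 1, against 41.04, 64.5 and 123.2 RPKM as the lowest, median and highest of the 9 libraries of the other sets (log2 difference -2.04 ± 0.12 (SE), limma adjusted p = 3.65e-05). It was also the highest in set 2, at 111, 123.2 and 102 RPKM (log2 difference 1.60 ± 0.12 (SE), limma adjusted p = 0.000991).

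The neighbouring genes pud-3 and pud-4, named for proteins that are raised in daf-2 mutants, were low in set 1 and highest in set 4. pud-3 stood at 312, 312 and 367 RPKM in set 1, 1085, 1157 and 1206 RPKM in set 2, 1259, 1040.4 and 1009 RPKM in set 3 and 2211, 1843 and 2326 RPKM in set 4. Its log2 difference was -2.07 ± 0.09 (SE) in set 1 (limma adjusted p = 8.14e-06) and 1.5 ± 0.09 (SE) in set 4 (limma adjusted p = 0.00038). pud-4 held 348, 343 and 316 RPKM in set 1, against 796, 1101 and 1345 RPKM as the lowest, median and highest of the other 9. The rest of the 10 were lower in set 1 as well: grd-10, a hedgehog-related gene, with 6.22 to 8.34 RPKM in set 1, against 19.6 to 40.2 RPKM in the other sets; anmt-3 with 84.4 to 102 RPKM in set 1, against 189 to 276 RPKM in the other sets; and Y43F8B.24 with 5.22 to 5.32 RPKM in set 1, against 11.03 to 24.3 RPKM in the other sets. For these 3 the set 1 libraries lay below all others. Y32F6A.4 held 29.2 to 37.04 RPKM in set 1, against 36.6 to 77.4 RPKM in the other sets, with an overlap, and was highest in set 2. Its set 1 call was lost when the TU3401 libraries were added to the fit (limma adjusted p = 0.139).

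**Figure D4:**
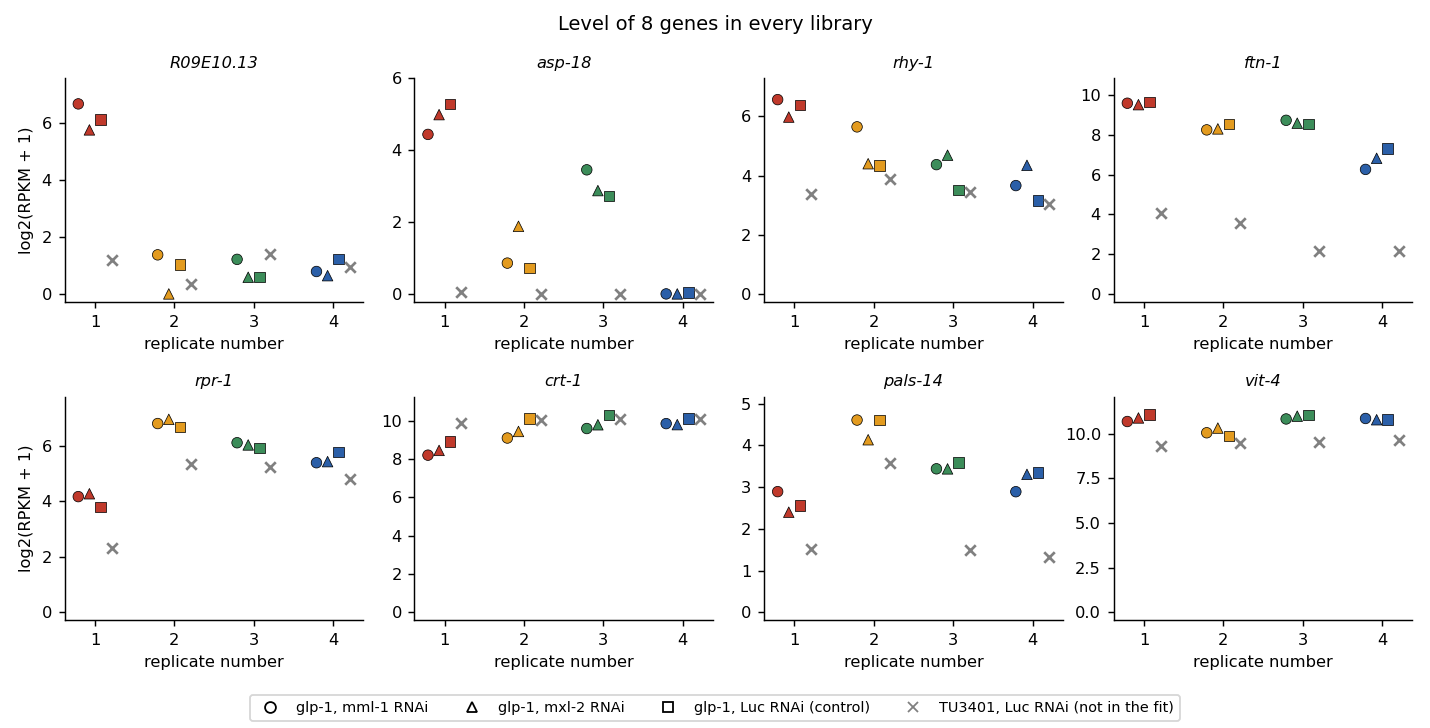
log2(RPKM + 1) of 8 genes in every library, with the replicate number on the x axis; circles are mml-1 RNAi, triangles mxl-2 RNAi, squares Luc RNAi, and grey crosses the TU3401 libraries, which were not fitted. Among the glp-1 libraries, R09E10.13 and rhy-1 are highest in set 1, asp-18 is at or near 0 in set 4 (0 to 0.0312 RPKM), ftn-1 is lowest in set 4, rpr-1 and crt-1 are lowest in set 1, and in set 2 pals-14 is highest and vit-4 lowest.

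After R09E10.13, the largest differences above the other sets in set 1 were those of 5 genes: scl-19, spp-9, cyp-14A3, clec-218 and asp-18. scl-19, of the SCP/TAPS family of secreted proteins, stood at 31.4, 39.7 and 44.2 RPKM in set 1, against 0, 0.977 and 8.97 RPKM as the lowest, median and highest of the 9 libraries of the other sets (log2 difference 4.07 ± 0.28 (SE), limma adjusted p = 9.86e-05). It was nearly absent in set 4, with 0.0637, 0.0738 and 0 RPKM. spp-9, a saposin-like peptide of the kind used against bacteria, stood at 139, 171 and 67.9 RPKM in set 1, against 0.885, 5.42 and 103 RPKM as the lowest, median and highest of the 9 libraries of the other sets (log2 difference 3.76 ± 0.72 (SE), limma adjusted p = 0.00618). Its levels in set 3 (70.5, 103 and 5.42 RPKM) overlapped those of set 1. cyp-14A3, a cytochrome P450, stood at 276, 165 and 30.1 RPKM in set 1, against 0.975, 3.54 and 75.2 RPKM as the lowest, median and highest of the 9 libraries of the other sets (log2 difference 3.69 ± 0.46 (SE), limma adjusted p = 0.00104). clec-218, a C-type lectin, stood at 333, 306 and 131 RPKM in set 1, against 6.33, 15.5 and 58.5 RPKM as the lowest, median and highest of the 9 libraries of the other sets (log2 difference 3.63 ± 0.37 (SE), limma adjusted p = 0.000425). Here all 3 libraries of set 1 lay above the other 9. asp-18, an aspartyl protease, stood at 20.7, 30.9 and 38.2 RPKM in set 1, against 0, 0.812 and 9.97 RPKM as the lowest, median and highest of the 9 libraries of the other sets (log2 difference 3.51 ± 0.27 (SE), limma adjusted p = 0.000133). In set 4 it had 0, 0 and 0.0312 RPKM. The SCP/TAPS and CUB-like list had 9 of 17 tested members higher in set 1 and 3 lower (median 0.87, against -0.09 over all genes). Of all genes, 11% were higher and 21% lower in set 1.

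The genes with the largest falls in set 1 had few reads there. C09D4.8, annotated as a non-coding RNA, stood at 0, 0.741 and 0 RPKM in set 1, against 2.89, 5.35 and 15.4 RPKM as the lowest, median and highest of the others (limma adjusted p = 0.001). sdz-6 held 3.62 to 9.113 RPKM in set 1, against 24.9 to 50.1 RPKM in the other sets (limma adjusted p = 0.000218). C25F9.11 held 0.850 to 2.26 RPKM in set 1, against 3.13 to 28.8 RPKM in the other sets (limma adjusted p = 0.00399). C01G10.5 held 0.618 to 1.59 RPKM in set 1, against 2.82 to 35.9 RPKM in the other sets (limma adjusted p = 0.000622), and it is taken up again with set 4.

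Genes of the hypoxia and hydrogen sulfide response were high together in set 1. HIF-1, the oxygen-regulated transcription factor, drives them, and EGL-9 and RHY-1 hold it down. Of the 18 tested members of the list, 11 were higher in set 1 and none lower (median difference 0.55), where 11% of all genes were higher. In set 4, 9 were lower and none higher (median -0.39), where 7.17% of all genes were lower. Both counts kept their direction with quantile scaling (11 higher, 10 lower) and median-ratio scaling (14 higher, 12 lower). rhy-1 stood at 93.8, 62.0 and 82.7 RPKM in set 1, against 7.91, 19.3 and 49.05 RPKM as the lowest, median and highest of the 9 libraries of the other sets (log2 difference 2.07 ± 0.30 (SE), limma adjusted p = 0.00184). cysl-2, a cysteine synthase-like enzyme that acts on cyanide and sulfide, stood at 621, 515 and 376 RPKM in set 1, against 59.2, 135 and 446 RPKM as the lowest, median and highest of the 9 libraries of the other sets (log2 difference 1.64 ± 0.23 (SE), limma adjusted p = 0.00178). The Luc RNAi library of set 1 lay below the mml-1 RNAi library of set 2, so the sets overlap for cysl-2. In set 4 it had 98.4, 135 and 60.4 RPKM (limma adjusted p = 0.00509). F22B5.4 held 3.93 to 7.34 RPKM in set 1, against 0.683 to 4.66 RPKM in the other sets (limma adjusted p = 0.00161). Within mml-1 RNAi, mxl-2 RNAi and Luc RNAi alike, set 1 was the highest of the 4 libraries for each of rhy-1, cysl-2 and F22B5.4. The set 4 calls of rhy-1 were lost without Luc RNAi replicate 4 or mml-1 RNAi replicate 4 (limma adjusted p = 0.0725 to 0.121). Those of F22B5.4 were lost without Luc RNAi replicate 4 or mml-1 RNAi replicate 4 (limma adjusted p = 0.0754 to 0.134). cth-1, the cystathionine gamma-lyase of the list, followed set 2 instead and is given there.

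Targets of DAF-16, the FOXO factor that longevity of germline-less worms needs, followed the same axis of sets 1 and 4. Of 27 tested members, 13 were higher and 4 lower in set 1 (median 0.18), where 11% of all genes were higher and 21% lower. In set 4, 11 were lower and none higher (median -0.34), where 7.17% of all genes were lower and 12.1% higher. ftn-1, ferritin, stood at 769, 732 and 807 RPKM in set 1, 303, 314 and 370.1 RPKM in set 2, 424, 383 and 371 RPKM in set 3 and 75.7, 112 and 157 RPKM in set 4. The sets 1 and 4 did not overlap with any other, and the log2 differences were 1.66 ± 0.15 (SE, limma adjusted p = 0.000267) and -2.06 ± 0.15 (SE, limma adjusted p = 0.000814). scl-20 stood at 246, 424 and 765 RPKM in set 1, against 34.2, 153 and 403 RPKM as the lowest, median and highest of the 9 libraries of the other sets (log2 difference 1.87 ± 0.20 (SE), limma adjusted p = 0.000575). dhs-26, a short-chain dehydrogenase, stood at 730.1, 826 and 897 RPKM in set 1, against 113, 231 and 501 RPKM as the lowest, median and highest of the 9 libraries of the other sets (log2 difference 1.79 ± 0.25 (SE), limma adjusted p = 0.00163). The sets overlap for scl-20 and not for dhs-26.

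The heat shock list had 10 of 24 tested members higher and 4 lower in set 1 (median 0.18), and 1 higher and 8 lower in set 4 (median -0.07). Of all genes, 11% were higher and 21% lower in set 1, and 12.1% were higher and 7.17% lower in set 4. Apart from dnj-13, hsp-70 held 12.1 to 23.5 RPKM in set 1, against 2.88 to 7.98 RPKM in the other sets (limma adjusted p = 0.000782), and the small heat shock protein gene hsp-12.6 held 7.11 to 12.8 RPKM in set 1, against 2.07 to 9.67 RPKM in the other sets (limma adjusted p = 0.00224). The first did not overlap between set 1 and the other sets, the second did. Genes of the endoplasmic reticulum (ER) stress list, not all of them chaperones, moved the other way. Of its 22 tested members, 2 were higher and 11 lower in set 1 (median -0.28). In set 4, 10 were higher and none lower (median 0.19). ckb-2, a choline kinase, stood at 7.34, 7.99 and 8.88 RPKM in set 1, against 11.26, 17.7 and 31.4 RPKM as the lowest, median and highest of the 9 libraries of the other sets (log2 difference -1.05 ± 0.12 (SE), limma adjusted p = 0.000641). crt-1, calreticulin, stood at 294, 349 and 482 RPKM in set 1, against 547, 889 and 1264 RPKM as the lowest, median and highest of the 9 libraries of the other sets (log2 difference -1.27 ± 0.09 (SE), limma adjusted p = 9.46e-05). pdi-6, a protein disulfide isomerase, stood at 113, 121.7 and 152 RPKM in set 1, against 179, 283.6 and 342 RPKM as the lowest, median and highest of the 9 libraries of the other sets (log2 difference -1.06 ± 0.08 (SE), limma adjusted p = 9.86e-05). For all 3 genes the set 1 libraries lay below the other 9. With median-ratio scaling the ER list had 4 higher and 10 lower in set 1, and 8 higher and 1 lower in set 4.

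Genes of the ribosome split in set 1, where 11% of all genes were higher and 21% lower. Cytosolic ribosomal protein genes were higher in 65 of 78 tested and lower in none (median 0.20), with quantile scaling in 53 and with median-ratio scaling in 73. Their summed level was 85492 to 90703 RPKM in set 1, against 71857 to 85864 RPKM in the other sets. The ranges overlap, since 1 library of set 3 reached into that of set 1. In sets 2 and 4, where 1.51% and 7.17% of all genes were lower, the same list had 22 and 33 members lower and none higher. With quantile scaling 5 and 15 of the list were lower, and with median-ratio scaling 34 and 49. These genes are long known for their high levels, and the highest class of mean RPKM was called most often. rpl-5 stood at 720.1, 687 and 671 RPKM in set 1, against 455, 505 and 610.1 RPKM as the lowest, median and highest of the 9 libraries of the other sets (log2 difference 0.42 ± 0.05 (SE), limma adjusted p = 0.000782). rpl-25.2 held 283.6 to 288 RPKM in set 1, against 177 to 236 RPKM in the other sets (limma adjusted p = 0.00283). The largest range in the list was that of rpl-11.1, with 11.2 to 13.4 RPKM in set 4, against 12.9 to 25.05 RPKM in the other sets (limma adjusted p = 0.0232); its call was lost without mml-1 RNAi replicate 4 or mxl-2 RNAi replicate 4 (limma adjusted p = 0.108 to 0.149). In TU3401 it had 1853, 1859, 1742 and 2034 RPKM.

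Genes of the nucleolus and of ribosome building, a repressor among them, were lower in the same set. Of 25 tested members of the nucleolus and ribosome biogenesis list, none was higher and 16 were lower in set 1 (median -0.37). There, 11% of all genes were higher and 21% lower. With quantile scaling 12 members were lower, and with median-ratio scaling 11. rpoa-2, a subunit of RNA polymerase I, held 0.624 to 1.01 RPKM in set 1, against 1.38 to 3.23 RPKM in the other sets (limma adjusted p = 0.00202). rbd-1 held 1.18 to 1.58 RPKM in set 1, against 1.66 to 3.42 RPKM in the other sets, and its call was lost without mxl-2 RNAi replicate 1 (limma adjusted p = 0.0535). tsr-2 held 10.3 to 12.3 RPKM in set 1, against 13.03 to 21.3 RPKM in the other sets (limma adjusted p = 0.00111), and ncl-1, a repressor of ribosomal RNA synthesis, 55.1 to 62.4 RPKM in set 1, against 80.5 to 99.1 RPKM in the other sets (limma adjusted p = 0.000241). Mitochondrial ribosomal proteins were lower in 38 of 69 and higher in 1 (median -0.33; 25 and 24 lower under the scalings). Of these, mrpl-4 held 5.68 to 6.114 RPKM in set 1, against 6.91 to 10.7 RPKM in the other sets and mrps-22 5.19 to 5.62 RPKM in set 1, against 5.77 to 10.1 RPKM in the other sets (limma adjusted p = 0.00219 and 0.00254). The respiratory chain and ATP synthase, nuclear-encoded, was called in the F-test in 7 of 46 members (15.2%). The proteasome was called in 5 of 37 (13.5%), and both shares lay under the 39.7% of all genes.

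Cuticle and intestinal genes gave sets 1 and 4 opposite signs. Of 72 tested members of the hypodermis and cuticle list, 5 were higher and 31 lower in set 1 (median -0.26), and 26 were higher and 4 lower in set 4 (median 0.21). The summed level was 65182 to 75700.3 RPKM in set 4, against 47326 to 64434 RPKM in the other sets, without overlap. col-43 stood at 6.26, 9.27 and 17.7 RPKM in set 1 and 66.9, 71.1 and 60.8 RPKM in set 4, with 15.7, 25.3 and 27.01 RPKM in set 2 and 16.03, 18.9 and 66.2 RPKM in set 3. col-149 stood at 0.523, 0.803 and 0.683 RPKM in set 1 and 10.55, 11.2 and 4.23 RPKM in set 4. Their limma adjusted p-values were 0.00476 and 0.00175 in set 1, and 0.00731 and 0.00168 in set 4. col-94 stood at 11.5, 26.2 and 31.9 RPKM in set 1 and 117, 118 and 118.6 RPKM in set 4. The set 4 call of col-43 was lost without mml-1 RNAi replicate 4 (limma adjusted p = 0.0617), and that of col-94 without mml-1 RNAi replicate 4 (limma adjusted p = 0.0727). Cuticle collagens are made in waves tied to the moults. The molting list had 4 of 16 members lower in set 1 and 3 higher in set 4, close to the shares of all genes (21% and 12.1%), and 3 and 2 with either scaling.

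Of all genes, 39.7% were called by the number. In set 1, 11% of all genes were higher and 21% lower, and in set 4 12.1% and 7.17%. Of 24 intestinal genes, 19 (79.2%) were called by the number, with 2 higher and 11 lower in set 1 and 12 higher and 3 lower in set 4. The summed level of the list was nevertheless low in set 4, at 11069 to 12733 RPKM in set 4, against 12530.5 to 14865 RPKM in the other sets, with an overlap. cpr-1, a cathepsin B-like protease, stood at 291, 253 and 505 RPKM in set 4, against 743, 928 and 1798 RPKM as the lowest, median and highest of the 9 libraries of the other sets (log2 difference -1.64 ± 0.29 (SE), limma adjusted p = 0.00891), and its call was lost without mml-1 RNAi replicate 4 or mxl-2 RNAi replicate 4 (limma adjusted p = 0.0534 to 0.0727). mtl-2, a metallothionein of the intestine, stood at 307, 416 and 363 RPKM in set 1, 487, 493 and 591 RPKM in set 2, 903, 871 and 1047 RPKM in set 3 and 1003, 1000.4 and 1104 RPKM in set 4. The values run in the same order of sets in the 3 RNAi groups. aqp-4, an aquaporin, held 23.1 to 25.21 RPKM in set 4, against 7.86 to 19.03 RPKM in the other sets (limma adjusted p = 0.00153), and nhx-2, a sodium-proton exchanger, 28.9 to 35.5 RPKM in set 4, against 10.43 to 31.9 RPKM in the other sets (limma adjusted p = 0.00226). Lysosomal genes were called in 54 of 63 (85.7%), with 13 higher and 30 lower in set 1 and 22 higher and 14 lower in set 4; with median-ratio scaling these were 17 and 19, and 12 and 16. After asp-18, gba-2, a glucocerebrosidase, had the largest range there, at 345, 143 and 27.2 RPKM in set 1, against 2.63, 4.85 and 65.6 RPKM as the lowest, median and highest of the others. Its Luc RNAi library of set 1 lay within the range of the other sets.

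Metabolic enzymes were among the genes higher in set 1. hach-1 and hphd-1, of the propionate shunt that worms use when vitamin B12 is short, were both higher. hach-1 stood at 225, 294 and 196 RPKM in set 1, against 48.11, 75.1 and 100.2 RPKM as the lowest, median and highest of the 9 libraries of the other sets (log2 difference 1.7 ± 0.13 (SE), limma adjusted p = 0.000123). hphd-1 stood at 291, 376 and 199 RPKM in set 1, against 50.01, 129.6 and 169.7 RPKM as the lowest, median and highest of the 9 libraries of the other sets (log2 difference 1.41 ± 0.18 (SE), limma adjusted p = 0.0012). For both genes the set 1 libraries lay above the other 9. The list had 8 of 24 members higher and 4 lower in set 1, where 11% of all genes were higher and 21% lower. Among cytochromes P450, 17 of 58 were higher and 9 lower in set 1, and 3 were higher and 15 lower in set 4 (medians 0.34 and -0.27). Of all genes, 12.1% were higher and 7.17% lower in set 4. dhs-8, a dehydrogenase of the oxidative stress list, stood at 70.2, 24.8 and 7.41 RPKM in set 1, against 0.334, 1.13 and 3.72 RPKM as the lowest, median and highest of the 9 libraries of the other sets (log2 difference 3.42 ± 0.38 (SE), limma adjusted p = 0.000622). The acyl-CoA dehydrogenase acdh-2 held 7.86 to 17.98 RPKM in set 1, against 0.471 to 9.15 RPKM in the other sets (limma adjusted p = 0.00323). asns-2, an asparagine synthetase, held 605 to 1083 RPKM in set 1, against 139 to 434 RPKM in the other sets (limma adjusted p = 0.000523).

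Among regulators, nuclear hormone receptors were higher in 34 of 181 and lower in 22 in set 1, where 11% of all genes were higher and 21% lower. With quantile scaling these were 45 and 11, and with median-ratio scaling 44 and 13. nhr-17 stood at 128, 40.3 and 151 RPKM in set 1, against 6.04, 8.60 and 10.49 RPKM as the lowest, median and highest of the 9 libraries of the other sets (log2 difference 3.34 ± 0.25 (SE), limma adjusted p = 0.000137). nhr-53 held 9.39 to 14.6 RPKM in set 1, against 1.60 to 5.02 RPKM in the other sets (limma adjusted p = 0.000179). skn-1, the Nrf factor of detoxification, stood at 105.2, 109 and 111 RPKM in set 1, against 34.8, 46.1 and 74.5 RPKM as the lowest, median and highest of the 9 libraries of the other sets (log2 difference 1.11 ± 0.07 (SE), limma adjusted p = 8.01e-05). bec-1, the worm Beclin of autophagy, close to skn-1 on chromosome IV, held 55.4 to 64.6 RPKM in set 1, against 19.3 to 52.9 RPKM in the other sets (limma adjusted p = 0.000377). The autophagy list as such had 2 of 28 members higher and 3 lower in set 1. tdc-1, the tyrosine decarboxylase of tyramine and octopamine neurons and of the gonad sheath, held 7.51 to 10.9 RPKM in set 1, against 2.59 to 5.59 RPKM in the other sets (limma adjusted p = 0.000511). The neuron list was called in 8 of 25 (32%) by the F-test, under the 39.7% of all genes. The muscle list had 9 of 27 members higher and none lower in set 1. With quantile scaling 11 were higher and 2 lower, and with median-ratio scaling 15 were higher and none lower. Of the 9, tni-3, a troponin I, had the largest range (82.0 to 97.6 RPKM in set 1, against 51.2 to 84.7 RPKM in the other sets). F-box, MATH and BTB genes, families of substrate adaptors for ubiquitin ligases, were higher in 6 and lower in 47 of 141 in set 1, and higher in 44 and lower in 6 in set 4. Of all genes, 21% were lower in set 1 and 12.1% higher in set 4. With quantile scaling the family had 36 lower in set 1 and 27 higher in set 4, and with median-ratio scaling 37 and 30.

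**Figure D5:**
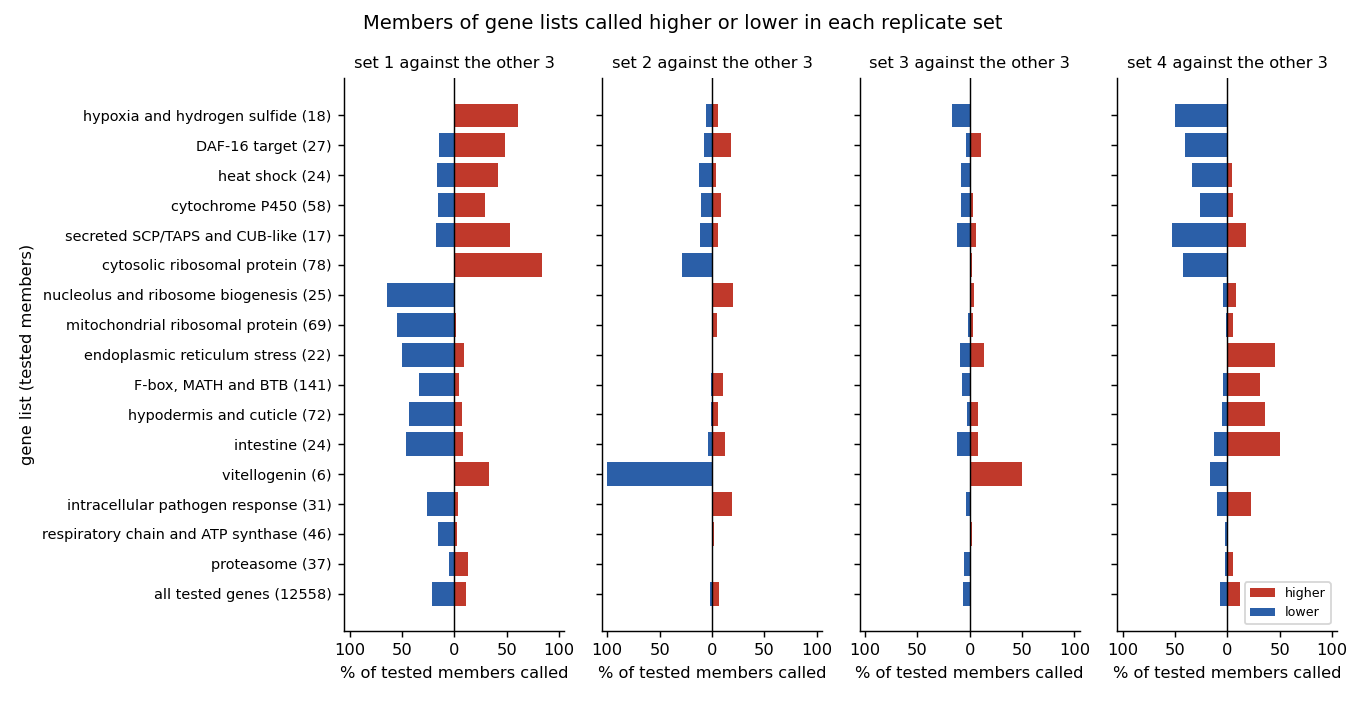
Share of the tested members of 16 gene lists, and of all tested genes in the bottom row, called higher (red, to the right) or lower (blue, to the left) in each set against the other 3. In sets 1 and 4 most lists point opposite ways; in set 2 the 6 vitellogenins are all lower, and the respiratory chain and proteasome lists are called less than all genes in each set.

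Saposin-like genes and proteases were among the largest falls of set 4. spp-9 stood at 1.27, 0.885 and 1.06 RPKM in set 4, against 1.95, 67.9 and 171 RPKM as the lowest, median and highest of the 9 libraries of the other sets (log2 difference -4.03 ± 0.72 (SE), limma adjusted p = 0.00913); the call was lost without mml-1 RNAi replicate 4 or mxl-2 RNAi replicate 4 (limma adjusted p = 0.0535 to 0.0605). Y51B9A.8 stood at 2.90, 3.18 and 4.78 RPKM in set 4, against 12.5, 53.1 and 154 RPKM as the lowest, median and highest of the 9 libraries of the other sets (log2 difference -3.47 ± 0.32 (SE), limma adjusted p = 0.0011). spp-12, a second saposin-like gene, stood at 2.60, 5.02 and 4.004 RPKM in set 4, against 4.48, 55.4 and 118.9 RPKM as the lowest, median and highest of the 9 libraries of the other sets (log2 difference -2.96 ± 0.34 (SE), limma adjusted p = 0.00226). For Y51B9A.8 and spp-9 all set 4 libraries lay below the other 9, while a set 2 library of spp-12 reached down to the set 4 levels. asp-18, with 0 to 0.0312 RPKM in set 4, had 0.655, 6.35 and 38.2 RPKM as the lowest, median and highest elsewhere (limma adjusted p = 0.000907). fat-7, a stearoyl-CoA desaturase, stood at 1.29, 1.403 and 0.975 RPKM in set 4, against 3.78, 7.62 and 13.1 RPKM as the lowest, median and highest of the 9 libraries of the other sets (log2 difference -1.86 ± 0.24 (SE), limma adjusted p = 0.0031). None of the other 9 libraries was as low.

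The genes that rose most in set 4 carry no gene name beyond that of their sequence. C01G10.5 stood at 34.7, 35.9 and 16.6 RPKM in set 4, against 0.618, 2.85 and 9.17 RPKM as the lowest, median and highest of the 9 libraries of the other sets (log2 difference 2.87 ± 0.24 (SE), limma adjusted p = 0.000907). F53F1.4 stood at 102, 76.7 and 59.1 RPKM in set 4, against 1.31, 14.5 and 22.7 RPKM as the lowest, median and highest of the 9 libraries of the other sets (log2 difference 2.78 ± 0.50 (SE), limma adjusted p = 0.0093), a call lost without mml-1 RNAi replicate 4 (limma adjusted p = 0.0772). C01G10.4, beside C01G10.5 on chromosome V, stood at 34.1, 36.4 and 8.22 RPKM in set 4, against 1.29, 2.51 and 6.17 RPKM as the lowest, median and highest of the 9 libraries of the other sets (log2 difference 2.59 ± 0.43 (SE), limma adjusted p = 0.0068), a call lost without mml-1 RNAi replicate 4 (limma adjusted p = 0.0617). Its Luc RNAi library was well below the other 2 of set 4. Of genes induced by pathogens, irg-8 stood at 1242, 1177 and 1242 RPKM in set 4, against 76.2, 258 and 822 RPKM as the lowest, median and highest of the 9 libraries of the other sets (log2 difference 2.14 ± 0.34 (SE), limma adjusted p = 0.00591), a call lost without mml-1 RNAi replicate 4 (limma adjusted p = 0.0509). pals-26 fell in set 4 instead, with 4.46 to 6.121 RPKM in set 4, against 9.60 to 18.3 RPKM in the other sets (limma adjusted p = 0.00265). The set's count as a whole leaned on mml-1 RNAi replicate 4, without which 433 genes were called in place of 2423.

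Set 2 had the lowest yolk protein transcripts. Vitellogenins are made in the intestine and normally loaded into oocytes, which these worms lack. All 6 tested genes were lower in set 2 (median -0.43), where 1.51% of all genes were lower (median 0.08). With quantile scaling 3 passed, with median-ratio scaling all 6. vit-4 stood at 1061, 1274 and 927 RPKM in set 2, against 1642, 1847 and 2158 RPKM as the lowest, median and highest of the 9 libraries of the other sets (log2 difference -0.80 ± 0.10 (SE), limma adjusted p = 0.00535). vit-3 stood at 754, 744 and 812 RPKM in set 2, against 904, 1174 and 1574 RPKM as the lowest, median and highest of the 9 libraries of the other sets (log2 difference -0.58 ± 0.06 (SE), limma adjusted p = 0.00406). vit-1 held 412 to 558 RPKM in set 2, against 649 to 875 RPKM in the other sets, and its call was lost without Luc RNAi replicate 2 or mml-1 RNAi replicate 2 (limma adjusted p = 0.0725 to 0.0825). vit-5, the most abundant of those named, held 7275 to 8076 RPKM in set 2, against 7786 to 11636 RPKM in the other sets, and its call was lost without Luc RNAi replicate 2 or mml-1 RNAi replicate 2 (limma adjusted p = 0.0717 to 0.106), with quantile scaling (0.394) and with no RNAi block (0.0916). For vit-4, vit-3 and vit-1 the set 2 libraries lay below the other 9, and for vit-5 the ranges overlap. These genes are alike in sequence, so reads may have been divided between them and the rule for that was not given in the sources used here.

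Among the other large falls of set 2 was that of argk-1. argk-1 (listed as F44G3.2), an arginine kinase, stood at 38.5, 43.7 and 4.68 RPKM in set 2, against 53.1, 118.8 and 348 RPKM as the lowest, median and highest of the 9 libraries of the other sets (log2 difference -2.63 ± 0.57 (SE), limma adjusted p = 0.0313). Its neighbour cth-1 held 25.9 to 102 RPKM in set 2, against 116 to 299 RPKM in the other sets. Set 2 was the lowest of the 4 libraries in each RNAi group for both, which was required of genes named by their largest differences. Both calls were lost in 7 of the 12 fits without 1 library. These were the fits without Luc RNAi replicate 1, 2 or 3, mml-1 RNAi replicate 2, 3 or 4 or mxl-2 RNAi replicate 3 (limma adjusted p = 0.053 to 0.0897 for argk-1 and 0.0541 to 0.111 for cth-1). asp-10, an aspartyl protease, stood at 188, 145 and 153 RPKM in set 2, against 497, 903 and 1839 RPKM as the lowest, median and highest of the 9 libraries of the other sets (log2 difference -2.60 ± 0.28 (SE), limma adjusted p = 0.00467), with no overlap. hrg-3, a secreted carrier of heme from the intestine, stood at 1.02, 0.732 and 2.02 RPKM in set 2, against 6.61, 7.54 and 54.5 RPKM as the lowest, median and highest of the 9 libraries of the other sets (log2 difference -2.50 ± 0.40 (SE), limma adjusted p = 0.0136), a call lost without Luc RNAi replicate 2 or mml-1 RNAi replicate 2 (limma adjusted p = 0.0598 to 0.0806). ins-19, an insulin-like peptide gene, held 1.34 to 4.50 RPKM in set 2, against 4.04 to 32.3 RPKM in the other sets, a call lost without Luc RNAi replicate 2 or mml-1 RNAi replicate 2 (limma adjusted p = 0.0929 to 0.11). irg-4 (listed as F08G5.6), a CUB-like gene induced by infection, stood at 256, 319.6 and 268 RPKM in set 1 and 46.3, 26.6 and 22.5 RPKM in set 2 (limma adjusted p = 9.89e-05 and 0.00279). It was the highest in set 1 and the lowest in set 2 in each RNAi group.

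Among the genes that were higher in set 2 were some C-type lectins and members of the intracellular pathogen response, which microsporidia and the Orsay virus are known to induce. Of 95 tested C-type lectins, 18 were higher and 6 lower in set 2, where 6.98% of all genes were higher and 1.51% lower; with quantile scaling 12 were higher and 7 lower, and the median difference of 0.10 was 0.00. In set 4, 23 were higher and 16 lower, where 12.1% of all genes were higher and 7.17% lower. clec-60 stood at 32.2, 57.8 and 129 RPKM in set 2, against 3.73, 9.90 and 30.6 RPKM as the lowest, median and highest of the 9 libraries of the other sets (log2 difference 2.4 ± 0.57 (SE), limma adjusted p = 0.0411). Its call was lost in 9 of the 12 fits without 1 library, all but those without Luc RNAi replicate 4 or mml-1 RNAi replicate 1 or 3 (limma adjusted p = 0.0578 to 0.183), and with quantile (0.0609) and median-ratio scaling (0.0603). clec-71 stood at 16.09, 29.8 and 27.3 RPKM in set 2, against 2.29, 4.69 and 5.83 RPKM as the lowest, median and highest of the 9 libraries of the other sets (log2 difference 2.21 ± 0.18 (SE), limma adjusted p = 0.00132), with every set 2 library above the other 9. endu-2 (listed as M60.2), an endoribonuclease, stood at 100.4, 130.1 and 37.4 RPKM in set 2, against 7.78, 23.3 and 59.2 RPKM as the lowest, median and highest of the 9 libraries of the other sets (log2 difference 1.80 ± 0.27 (SE), limma adjusted p = 0.0113), a call lost without Luc RNAi replicate 2 (limma adjusted p = 0.0701). Y47H10A.5 held 238 to 511 RPKM in set 2, against 28.6 to 278 RPKM in the other sets (limma adjusted p = 0.00584). Of 31 members of the pathogen response list, 6 were higher and none lower in set 2 (median 0.17), and 7 were higher and 3 lower in set 4 (median 0.18), a similar count. The neighbours pals-14 (listed as F22G12.1) and pals-6 (listed as C17H1.7) led them. pals-14 stood at 23.3, 16.5 and 23.4 RPKM in set 2, against 4.27, 8.88 and 11.04 RPKM as the lowest, median and highest of the 9 libraries of the other sets (log2 difference 1.36 ± 0.14 (SE), limma adjusted p = 0.00321), and pals-6 held 47.2 to 63.6 RPKM in set 2, against 16.7 to 35.96 RPKM in the other sets (limma adjusted p = 0.00722). For pals-14 and pals-6 no other library reached the set 2 levels, while endu-2 and Y47H10A.5 overlap with other sets. fbxa-30, an F-box gene, held 2.90 to 6.07 RPKM in set 2, against 0.307 to 4.31 RPKM in the other sets, a call lost without Luc RNAi replicate 2 or mml-1 RNAi replicate 2 (limma adjusted p = 0.0548 to 0.116).

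The meiosis, sperm and DNA replication lists had their highest summed levels in set 2, on the RPKM as deposited, while few of their genes were called. The glp-1 libraries had summed levels over 25 meiosis genes of 25.1 to 29.2 RPKM in set 2 and 19.6 to 23.7 RPKM in the other sets, against 1170.2 to 1254 RPKM in TU3401, a low level in all 12 beside worms with a germline. Over 76 sperm genes the sums were 143 to 149.8 RPKM in set 2, against 108 to 136 RPKM in the other sets, and over 30 genes of DNA replication and the cell cycle 92.6 to 103.9 RPKM in set 2, against 70.7 to 91.6 RPKM in the other sets. These 3 sums did not overlap between set 2 and the other sets. No tested gene of the meiosis list (4) or the replication list (17) was called higher in set 2, and 1 of 12 sperm genes was, where 6.98% of all genes were. The median differences in set 2 were 0.09 for meiosis, 0.14 for sperm and 0.10 for replication, beside 0.08 over all genes. With quantile scaling they were -0.01, 0.03 and 0.01, and no sperm gene was called. From 18 to 24 of the meiosis genes were above 0 in a glp-1 library. glh-1, a helicase of germ granules, stood at 12.5, 13.4 and 10.97 RPKM in set 2, against 5.35, 6.86 and 9.10 RPKM as the lowest, median and highest of the 9 libraries of the other sets (log2 difference 0.74 ± 0.10 (SE), limma adjusted p = 0.00723), against 175.2, 207, 185 and 205 RPKM in TU3401 replicates 1 to 4. Of the germline and oocyte list 13 of 34 members could be tested, and 2 were higher in set 2 and none lower (1 higher with either scaling). The sum of this list was 8698 to 9113 RPKM in set 2, against 7482 to 9159 RPKM in the other sets, with an overlap, and 22189 to 23092 RPKM in TU3401. Nearly all of it in the glp-1 libraries came from perm-2 and perm-4, genes of the eggshell's permeability barrier, singled out after their levels were seen. perm-2 held 3955 to 4188 RPKM in set 2 and 3444 to 4156 RPKM in the other sets, against 1814 to 2078 RPKM in TU3401. perm-4 held 4607 to 4834 RPKM in set 2 and 3923 to 4887 RPKM in the other sets, against 1892 to 2127 RPKM in TU3401. Both were thus higher in the germline-less libraries than in TU3401. The other 32 genes of the list summed to 119.5 to 136 RPKM in set 2 and 109 to 123.4 RPKM in the other sets, against 18483 to 19318 RPKM in TU3401. The part of these transcripts in the other differences of set 2 was not tested.

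The calls of set 3 were the ones that single libraries ended altogether. Without mml-1 RNAi replicate 3 limma called 0 genes in place of 1043, with 2448 genes at an unadjusted p under 0.05 in place of 3694. Without mxl-2 RNAi replicate 3 it also called 0, with 1986 at an unadjusted p under 0.05. These libraries, numbered 3 on mml-1 RNAi and mxl-2 RNAi, held the highest mxl-2 levels among the germline-less libraries. The part of this in the set 3 calls was not tested. Of the largest differences, D1086.9 stood at 24.1, 18.5 and 45.2 RPKM in set 3, against 0.425, 7.54 and 14.98 RPKM as the lowest, median and highest of the 9 libraries of the other sets (log2 difference 1.93 ± 0.40 (SE), limma adjusted p = 0.0316), a call lost without Luc RNAi replicate 3, mml-1 RNAi replicate 3, mxl-2 RNAi replicate 1, mxl-2 RNAi replicate 3 or mxl-2 RNAi replicate 4 (limma adjusted p = 0.0572 to 0.187). ZK355.3 stood at 12.7, 18.4 and 32.5 RPKM in set 3, against 1.95, 8.99 and 18.3 RPKM as the lowest, median and highest of the 9 libraries of the other sets (log2 difference 1.23 ± 0.18 (SE), limma adjusted p = 0.0164). Set 3 was the highest in each RNAi group for both, which was required of genes named by their largest differences. F11D11.3 stood at 4.69, 2.71 and 1.11 RPKM in set 3, against 5.08, 11.98 and 28.2 RPKM as the lowest, median and highest of the 9 libraries of the other sets (log2 difference -1.86 ± 0.26 (SE), limma adjusted p = 0.0164), and in set 2 at 28.2, 15.2 and 24.7 RPKM, so that sets 3 and 2 lay at opposite ends. K02C4.2 stood at 2.65, 1.83 and 2.44 RPKM in set 3, against 2.95, 14.6 and 24.1 RPKM as the lowest, median and highest of the 9 libraries of the other sets (log2 difference -1.68 ± 0.25 (SE), limma adjusted p = 0.0177). Set 4 was nearly as low, at 2.95, 3.04 and 3.64 RPKM. The calls of ZK355.3, F11D11.3 and K02C4.2 in set 3 were lost without mml-1 RNAi or mxl-2 RNAi replicate 3 (limma adjusted p = 0.0927 to 0.155, 0.0764 to 0.141 and 0.0944 to 0.141). F11D11.3 lost its set 2 call without mml-1 RNAi replicate 2 (limma adjusted p = 0.0543). Nuclear hormone receptors were lower in 28 of 181 in set 3, where 6.86% of all genes were lower, but in 1 and 2 with the other scalings.

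Genes next to each other on a chromosome often followed the sets together. Where a gene was higher in set 1, the next tested gene that did not overlap it was higher too in 17.9% of cases, against 10.1% for the gene 20 positions on. In set 4 these shares were 20.8% against 12.2% among higher genes and 15.9% against 7.6% among lower genes, and in set 2 13% against 7.48% among higher genes. Over 10658 pairs of neighbours that do not overlap, the deviations in the 12 libraries had a median r of 0.22, and 6.76% of pairs reached 0.8; 20 positions apart the median was 0.13 and 3.18% reached 0.8. These are descriptions across genes, with 12 libraries as points.

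Several of the genes described form such pairs. asp-18, scl-19 and scl-20 lie in a row on chromosome V (18730174 to 18734481, WBcel235), and over the 12 libraries asp-18 and scl-19 had r = 0.988, with 311 bases between them. The gap between scl-19 and scl-20 is 25 bases (r = 0.95). pals-6 and pals-14, on opposite strands of chromosome I with 577 bases between, had r = 0.981. cth-1 and argk-1 (chromosome V, same strand, 1143 bases between) had r = 0.984. pud-3 and pud-4 had r = 0.975, and C01G10.5 and C01G10.4 had r = 0.947. skn-1 and bec-1 had r = 0.973 on the same strand of chromosome IV, with 1 protein-coding gene annotated between them. cysl-2 and dhs-8, 3574 bases apart, had r = 0.777. The sources used here do not say whether counting used the strand.

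Neither mml-1 nor mxl-2 passed the F-test over sets (limma adjusted p = 0.122 and 0.085). glp-1 itself held 2.08 to 4.32 RPKM in the 12 libraries, against 70.3, 75.6, 69.2 and 69.4 RPKM in TU3401; its lower level in set 3 (limma adjusted p = 0.0393) did not pass in 9 of the 12 fits without 1 library (0.0518 to 0.234). sid-1, the channel gene, held 138 to 163 RPKM in set 1, against 179.8 to 264 RPKM in the other sets (limma adjusted p = 0.00273); its rise in set 4 to 231, 241 and 238 RPKM passed with all libraries (limma adjusted p = 0.014) but not without Luc RNAi replicate 4 or mml-1 RNAi replicate 4 (limma adjusted p = 0.0642 to 0.0738).

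Other ways of fitting ended the calls of some of the genes described (limma adjusted p in parentheses). With the TU3401 libraries in the fit these were rhy-1 in set 4 (0.0643), scl-19 in set 4 (0.0541), rpl-11.1 in set 4 (0.115), mtl-2 in set 4 (0.0977), sid-1 in set 4 (0.199), vit-3 in set 2 (0.0902), clec-60 in set 2 (0.0756), endu-2 in set 2 (0.0543), ins-19 in set 2 (0.0638), D1086.9 in set 3 (0.141), ZK355.3 in set 3 (0.0996), K02C4.2 in set 3 (0.111) and glp-1 in set 3 (0.12). Without the RNAi group as a block they were hsp-12.6 in set 1 (0.0521), cysl-2 in set 4 (0.0601), rpl-11.1 in set 4 (0.0588), endu-2 in set 2 (0.121), ins-19 in set 2 (0.0554), ZK355.3 in set 3 (0.112) and glp-1 in set 3 (0.0695). With no filter on low levels, which adds tests, they were rpl-11.1 in set 4 (0.0546), clec-60 in set 2 (0.0835), argk-1 in set 2 (0.0653), cth-1 in set 2 (0.07), D1086.9 in set 3 (0.0698) and glp-1 in set 3 (0.0735). In a voom fit on the recovered reads, the calls of spp-9 in set 4 (0.0839) and argk-1 in set 2 (0.0551) ended. The call of glp-1 in set 3 (0.0886) ended with quantile scaling and likewise with median-ratio scaling (0.0698), and that of D1086.9 in set 3 (0.0529) with a pseudocount of 0.1. Without all 4 libraries of mml-1 RNAi, mxl-2 RNAi or Luc RNAi, 40, 23 and 22 of the calls followed for named genes ended. In the same order, 74, 91 and 92 of these calls were kept. Fewer libraries were left to test on in these fits.

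The sets bear on how many genes the RNAi treatment is found to change. An F-test over the 3 RNAi groups called 14 genes without the sets and 402 with the number as a replicate block, on the same 12 libraries and 12558 genes (limma, adjusted p under 0.05). The blocked count takes the sets out of the error. Leaving out 1 library gave 2 to 20 calls in the test without the block, and 2 to 7 without any 1 library other than mml-1 RNAi replicate 4.

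The 4 TU3401 libraries, numbered alike and kept out of these fits, allowed a reading of the same numbers in worms with a germline. With 1 library per number there is no test. Of the genes called higher in set 1 that had reads in TU3401, 67.7% were above the mean of the other TU3401 libraries in TU3401 replicate 1, against 47.5% of all tested genes. Of those called lower, 69.1% were below, against 52.5%. For set 2 the shares were 77.2% against 57% for higher genes and 74.6% against 43% for lower genes. For set 4 they were 54.9% against 40.8% and 76.9% against 59.2%. For set 3 they were closest to all genes, at 61.5% against 57.4% and 47.7% against 42.6%. The profile of each TU3401 library correlated with the set of its own number at r = 0.234, 0.302, 0.117 and 0.253 for replicates 1 to 4, over 12447 genes. TU3401 replicate 4 was a little closer to set 3 (0.290) than to set 4, and TU3401 replicate 3 to set 4 (0.131) than to set 3.

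Single genes showed both sides of this. rpr-1 had 3.99, 39.3, 36.8 and 27.3 RPKM in TU3401 replicates 1 to 4, lowest in 1 and highest in 2, as in the germline-less sets. R06C1.4 had 706, 322, 295 and 285 RPKM, with replicate 1 highest again. pals-14 had 1.84, 10.96, 1.83 and 1.49 RPKM and argk-1 87.3, 2.91, 44.1 and 30.9 RPKM, with replicate 2 highest for pals-14 and lowest for argk-1, as in set 2. Others did not follow: nhr-17 was level at 11.6, 11.4, 11.5 and 11.6 RPKM, and R09E10.13 had 1.29, 0.260, 1.61 and 0.942 RPKM, without a high value in replicate 1. scl-19 was at 0 in all 4 TU3401 libraries, and asp-18 had 0.0451, 0, 0 and 0 RPKM, so no set pattern could be read for them.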

How the data were processed

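The 16 libraries were deposited as RPKM per gene, and per the submitters' processing notes TopHat2 2.1.1, bcl2fastq and the build GRCh38 were named. GRCh38 is a human build, and the worm build and the counter are not given in the sources used here. Deposited RPKM were whole multiples of 1 read in all 25332 rows above 0 (tolerance 0.001), so read totals and a voom fit on recovered reads could be had. The comparison of replicate numbers used limma 3.58.1 in R 4.3.3 on log2(RPKM + 1), with RNAi group as a block, a trend in the prior variance and robust estimation, over genes with a mean of at least 1 RPKM. Benjamini-Hochberg adjustment ran over all tested genes, and the fit was tested on simulated data. Numbers pair the libraries: same-number deviations correlated above 0.1 in 12 of 12 pairs. The TU3401 RPKM entered only the alternative that adds them. Names and positions came from the Ensembl annotation of WBcel235, in which 907 of 42048 names found no match, and 11 names had turned into dates.

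The members and gene lists were chosen with earlier results of these data known. Named were the 10 genes with the smallest F-test p, genes with the largest differences per set and direction (mean of at least 5 RPKM, with that set's library extreme in all 3 RNAi groups), list members with the largest range of set means, and mml-1, mxl-2, glp-1 and sid-1. Piwi RNA loci are not named. Alternatives changed the pseudocount, filter, scaling, test, block and samples. RPKM are shares of a library, so a few abundant genes can move all others.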

Additional observations from a re-analysis of the deposited data

Results flagged for a closer look

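In each RNAi group of 4, the gap between the highest or lowest library and its nearest neighbour was set over the range of the group and read against Dixon's 95% critical value for 4 samples. Of 300 such groups, over the named genes and the library measures, 30 held a library that stood apart, and chance alone gives about 1 in 20. In 26 of the 30 the library was of the set in which the gene is described. Since those genes were named for a set that lies apart, this says little of its own.

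Of genes higher in set 1, the set 1 library stood apart for R09E10.13 in all 3 groups (gap over range 0.901 on mml-1 RNAi, 0.889 on mxl-2 RNAi, 0.886 on Luc RNAi). On mml-1 RNAi and mxl-2 RNAi it did so for dnj-13 (0.907 and 0.875), and on mml-1 RNAi and Luc RNAi for R06C1.4 (0.913 and 0.852) and nhr-17 (0.915 and 0.955). On mml-1 RNAi alone it stood apart for hach-1 (0.919) and hphd-1 (0.928), and on Luc RNAi alone for clec-218 (0.907) and dhs-8 (0.926). Of genes lower in set 1, it stood apart for anmt-3 in all 3 groups (0.852 on mml-1 RNAi, 0.892 on mxl-2 RNAi, 0.887 on Luc RNAi). On mxl-2 RNAi it did so for rpoa-2 (0.852), mrpl-4 (0.908) and mrps-22 (0.856), and on Luc RNAi for crt-1 (0.861) and ncl-1 (0.856).

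In set 2, mxl-2 RNAi replicate 2 was apart for clec-71 (high, 0.892), hrg-3 (low, 0.843) and vit-1 (low, 0.975). In set 4, mxl-2 RNAi replicate 4 was apart for irg-8 (high, 0.843), and mml-1 RNAi replicate 4 for pals-26 (low, 0.858) and for clec-60 (low, 0.931), a gene described with set 2. The RNAi targets were apart as well: mml-1 was high in mml-1 RNAi replicate 2 (0.833) and mxl-2 in mml-1 RNAi replicate 3 (0.977). The highest mxl-2 level was also in set 3, in the mxl-2 RNAi library. The share of reads in genes under 300 bases was high in Luc RNAi replicate 3 (0.877).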

How the results depend on the processing

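Set differences were followed for 89 named genes, some of them in more than 1 set, so the counts here are of differences and not of genes. Of these differences, 83 kept their call in all 12 fits without 1 library, and 31 lost it in at least 1 of them. Under every alternative, 66 of the differences kept their call, and 0 reversed. The F-test's 4990 genes were 2925 with the TU3401 libraries added, 722 without the mml-1 RNAi group, 1713 without the mxl-2 RNAi group and 2484 without the Luc RNAi group, and 3271 to 5274 without 1 library. Set 1's 4019 were 1704, 1731 and 2521 without the groups in that order, and 2117 to 4207 without 1 library. Set 2's 1065 were 318 with TU3401 added, 562 with median-ratio and 522 with quantile scaling, 532 with no RNAi block, 462 with no filter, 73 without the mml-1 RNAi group, 70 without the Luc RNAi group and 130 to 1400 without 1 library. Set 3's 1043 were 9, 523, 264, 332 and 82 under the same 5 changes, then 0, 25 and 4 without the mml-1, mxl-2 and Luc RNAi groups (2078 at an unadjusted p under 0.05 for the limma count of 0), and 0 to 1620 without 1 library. Set 4's 2423 were 965 with TU3401 added, 1544 with no filter, 191, 881 and 1463 without the 3 groups in that order, and 433 to 3135 without 1 library. The RNAi test called 14 genes, 4 with no filter, 402 with the replicate block and 2 to 20 without 1 library. The share of spread by number kept its side of the threshold under each alternative (67.7% to 73.3% without 1 library). It was lower with the TU3401 libraries added (52.4%), a pseudocount of 0.1 (58.1%) or no filter (58.6%). With a mean of at least 5 RPKM it was 76.3%. Without the mml-1, mxl-2 or Luc RNAi group it was 73.8%, 76.4% and 77.2%. Fewer libraries leave fewer degrees of freedom; otherwise the cause was not tested. Fewer genes were called at low levels: 21.8% of genes in the lowest of 4 classes of mean RPKM were called and 57.3% in the highest.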
